A study of Rattus norvegicus with 16 samples.

Results

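Messenger RNA of 33 genes that carry glucose into the cell and break it down to lactate or acetyl-CoA was followed in the right ventricle of rats with and without pressure overload and with and without estrogen receptor alpha. The genes were chosen by name for their place in the pathway, with earlier results of these data known. They are 33 of the 32754 gene entries in the count tables. All 33 had enough counts to be tested. The animals were female Sprague Dawley rats, 20 to 21 weeks old. The 4 groups were wild-type rats with pulmonary artery banding (WT PAB), wild-type rats with sham surgery (WT SHAM), ERalpha -/- rats with pulmonary artery banding (KO PAB) and ERalpha -/- rats with sham surgery (KO SHAM). Banding narrows the pulmonary artery and lasted 10 weeks. Each group has 4 libraries, 16 in all, made from 10 mg pieces of right ventricle as stranded libraries of polyadenylated RNA. The loss of the receptor is not limited to one cell type by the labels. Because whole tissue was sequenced, fewer cells of a type and less RNA per cell cannot be told apart. The labels do not say that the libraries of a group come from separate animals, and the spread that p-values rest on may be technical in part.

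Glucose enters heart muscle through the transporters encoded by Slc2a1 (GLUT1) and Slc2a4 (GLUT4, which responds to insulin) and is trapped by hexokinases. Phosphofructokinase commits it to glycolysis, aldolase splits it, and enolase and pyruvate kinase complete the route to pyruvate. Pyruvate is then reduced to lactate by lactate dehydrogenase or oxidised in mitochondria by the pyruvate dehydrogenase complex, which the pyruvate dehydrogenase kinases switch off. At many steps several genes encode alternative forms of the same enzyme, some typical of muscle and some of fetal or other tissues. The adult heart draws most of its energy from fatty acids and lactate, and a shift towards glucose and towards fetal enzyme forms has been described in overloaded hearts.

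The libraries held 27733987 to 32411398 counts in WT PAB, 22168110 to 27598074 in WT SHAM, 25778652 to 29210819 in KO PAB and 23270079 to 34718633 in KO SHAM. Levels are given as CPM, counts scaled to a common library size by TMM, which corrects each total for composition, and they are compared between samples of 1 gene and not between genes, since no gene lengths were used. The 33 genes together took 1.58 to 1.68% of the counts in WT PAB, 1.40 to 1.68% in WT SHAM, 1.47 to 1.65% in KO PAB and 1.49 to 1.67% in KO SHAM. Esr1, which encodes estrogen receptor alpha, was at 0.248 to 0.589 CPM in the 8 KO libraries and at 2.69 to 5.53 CPM in the 8 WT libraries. Of the sham libraries, 3 stood apart, namely WT SHAM 2, WT SHAM 3 and KO SHAM 4. Adipoq, an adipocyte gene, was at 45.6, 28.1 and 11.1 CPM in them, and was otherwise at or below 0.355 CPM except in KO PAB 3 (5.21 CPM). The 8 mesothelial markers summed to 57.8 to 121 CPM in these 3 libraries and to 7.61 to 30.0 CPM in the other 5 sham libraries. Their 5 smooth muscle markers summed to 880 to 2858 CPM, against 124 to 301 CPM in the other 5. Fibroblast markers summed to 1311 to 2173 CPM in the 3 and to 633 to 865 CPM in the other 5, and macrophage markers to 64.0 to 92.7 CPM and to 24.8 to 38.1 CPM. The summed CPM of the 7 adipocyte markers differed little, with 201.1 to 211 CPM in the 3 and 133 to 201.1 CPM in the other 5. All 7 were detected in each of the 3, however, against 2 to 4 of them in the other 5. The 8 cardiomyocyte markers summed to 32704 to 45660 CPM in the 3 and to 53636 to 63167 CPM in the other 5. Averaged banding effects are therefore also given without these 3 libraries wherever that alters a call, a direction or the size by more than 1.5 times. Banded libraries were all kept in those fits. Among them KO PAB 3 and KO PAB 4 had cardiomyocyte sums of 41829 and 46349 CPM, against 53967 CPM or more in the other banded libraries. KO PAB 3 also had fibroblast markers at 1091 CPM and macrophage markers at 82.8 CPM, so leaving out the 3 does not even out cell content. Cardiac genes marked every library, with Myh6 at 9521 to 23408 CPM and the ventricular Myl2 at 43.8 to 121 CPM, while fast skeletal muscle markers summed to at most 2.57 CPM. The atrial Myl7 was uneven. It was at 6.23 to 9.54 CPM in the 3 sham libraries that stood apart and at most 0.682 CPM in the other 5. In banded libraries it ran from 0.753 CPM in KO PAB 1 to 14.1 CPM in WT PAB 2.

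Across both genotypes, 10 weeks of banding moved 2 of the 33 genes past the test. Hk1, which encodes hexokinase 1, rose, and Eno3, which encodes the muscle form of enolase, fell. The test was the quasi-likelihood F test of edgeR on the mean of both banding effects, with Benjamini-Hochberg adjustment over the 13458 genes tested and a threshold of 0.05. By the same rule 685 genes, 5.09% of those tested, passed; 3.24% were higher in PAB and 1.85% lower. With 2 of 33, the members were called at a share near that background. The members' median log2 fold change of PAB over SHAM was 0.07 with the 16 libraries and -0.08 without the 3 sham libraries, against -0.02 and 0.01 over all genes tested, so the sign of the median turned. The sign of 11 single estimates turned with it. Between PAB and SHAM, 22 of the 33 genes differed by less than 0.2 on the log2 scale. The standard errors (SE) of the 33 averaged log2 fold changes ran from 0.08 to 0.43. At an unadjusted p below 0.05, 10 of the 33 genes passed, against 22.7% of all genes tested.

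Within a genotype no member passed the adjusted test. Among all genes, 1 passed for banding in WT (0.00743%) and 85 for banding in KO (0.632%). At an unadjusted p below 0.05, 8 members passed in WT, against 11.7% of all genes, and 4 in KO, against 15.6%. DESeq2 called none of the 33 in WT and 2, Hk1 and Eno3, in KO. Banded and sham libraries did not overlap for 2 members in KO, Hk1 and Eno3, against 10.2% of all genes, and for none in WT, against 4.93%. The estimated banding effect was positive in both genotypes for 16 members and negative in both for 6. It was positive in KO and negative in WT for Pfkfb3, Slc16a3 and Pdk3, and positive in WT and negative in KO for the remaining 8. Leaving the 3 sham libraries out, 12 were positive in both and 18 negative in both.

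**Figure D1:**
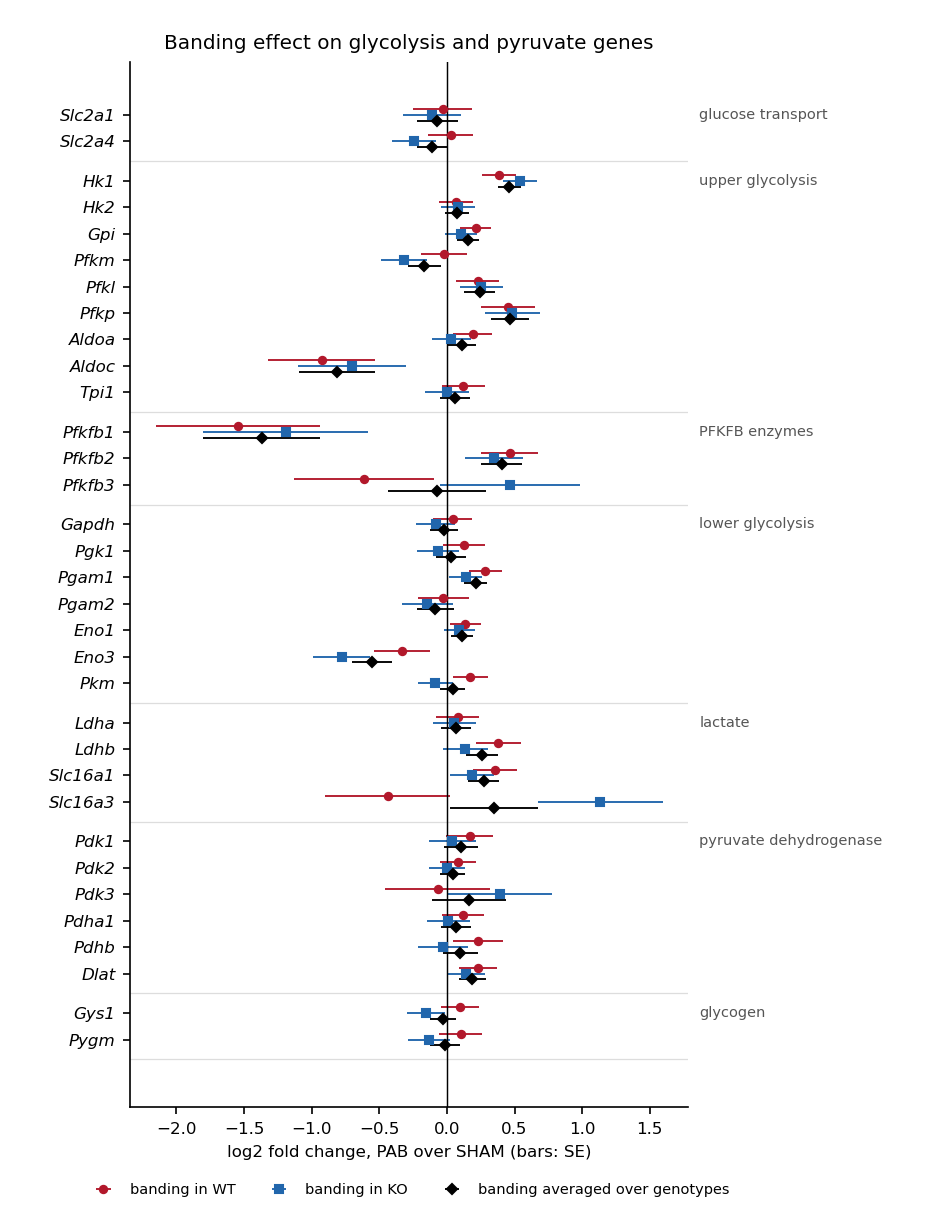
Log2 fold change of PAB over SHAM for each of the 33 genes (rows, grouped by step), in WT (circles), in KO (squares) and averaged over both (diamonds), with bars of 1 SE. Most diamonds lie within 0.2 of zero; Hk1 lies to the right at 0.46 and Eno3 to the left at -0.56, while Pfkfb1 and Aldoc lie farther left with wide bars.

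Glucose transporters did not pass the test in either direction. Slc2a4 averaged 393 ± 40.1 CPM in WT PAB and 386 ± 90.2 CPM in WT SHAM, and 360.4 ± 53.6 CPM in KO PAB and 426 ± 58.4 CPM in KO SHAM (SD, n = 4 each). Its averaged log2 fold change was -0.11 (SE 0.12, edgeR adjusted p = 0.622). Without the 3 sham libraries it was -0.26. Slc2a1 had an averaged log2 fold change of -0.07 (SE 0.15, adjusted p = 0.828), and -0.12 without those libraries.

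Hexokinase 1 was the glycolytic enzyme with the clearest rise. Hk1 had 152, 127, 99.6 and 117 CPM in WT PAB, against 101, 81.7, 100.4 and 97.8 CPM in WT SHAM. In KO PAB Hk1 had 114, 149, 125 and 145 CPM, against 93.5, 88.6, 87.1 and 97.4 CPM in KO SHAM. All 4 KO PAB libraries lay above all 4 KO SHAM libraries, whereas in WT 1 PAB library lay within the sham range. Averaged over genotypes Hk1 was 1.38-fold higher in PAB, a log2 fold change of 0.46 (SE 0.09, edgeR adjusted p = 0.00918). The estimate was 0.38 in WT (SE 0.12, adjusted p = 0.352) and 0.54 in KO (SE 0.12, adjusted p = 0.0559), and the difference between them was 0.16 (SE 0.17, adjusted p = 0.999). The averaged result passed under each of 25 alternatives, with adjusted p from 3.84e-05 to 0.0251, and was 0.45 without the 3 sham libraries.

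Hk2 encodes the insulin-responsive hexokinase of muscle and heart, and its PAB and SHAM groups overlapped. It had 98.9, 89.5, 101 and 84.9 CPM in WT PAB, against 89.3, 67.2, 85.0 and 116 CPM in WT SHAM. In KO PAB Hk2 had 90.4, 99.8, 95.2 and 96.0 CPM, against 93.0, 88.7, 96.0 and 82.8 CPM in KO SHAM. The lowest and the highest of the 16 values both came from WT SHAM. The averaged log2 fold change was 0.07 (SE 0.09, adjusted p = 0.657), with the sign turning to -0.04 without the 3 sham libraries.

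Of the 3 phosphofructokinase genes, the muscle form and the platelet form differed in the sign of their estimates. Pfkp, the platelet form, had 25.5, 13.2, 17.8 and 19.0 CPM in WT PAB, against 13.2, 13.2, 12.7 and 16.0 CPM in WT SHAM. In KO PAB Pfkp had 12.8, 17.0, 22.8 and 24.4 CPM, against 11.8, 14.1, 15.3 and 13.9 CPM in KO SHAM. Most banded libraries lay above the sham libraries but each genotype had 1 banded library within the sham range, and the averaged log2 fold change of 0.47 did not pass (SE 0.14, adjusted p = 0.067). Pfkm, the muscle form, had 627, 632, 772 and 669 CPM in WT PAB, against 794, 468, 623 and 854 CPM in WT SHAM. In KO PAB Pfkm had 691, 588, 528 and 539.6 CPM, against 811, 772, 761 and 573 CPM in KO SHAM. The lowest sham value in each genotype belonged to a library of the 3 that stood apart. With all libraries the averaged log2 fold change of Pfkm was -0.17 (SE 0.12, adjusted p = 0.431). Without those 3 it was -0.35 (SE 0.08, adjusted p = 0.0296), and the gene fell past the threshold. That fit kept KO PAB 3 and KO PAB 4, which had the lowest Pfkm and the lowest cardiomyocyte marker sums of KO PAB. The part of cell content in this fall was not tested. Pfkl, the liver form, averaged 30.9 ± 6.33 CPM in WT PAB and 26.3 ± 3.15 CPM in WT SHAM, and 30.0 ± 3.99 CPM in KO PAB and 25.1 ± 4.87 CPM in KO SHAM (SD, n = 4 each). Its averaged log2 fold change was 0.24 (SE 0.11, adjusted p = 0.215).

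The bifunctional PFKFB enzymes make and degrade the regulator that activates phosphofructokinase, and none of the 3 mRNAs passed the test. Pfkfb1, the liver and skeletal muscle form, had 0.154, 0.808, 0.798 and 0.694 CPM in WT PAB, against 0.691, 2.96, 3.08 and 0.452 CPM in WT SHAM. In KO PAB Pfkfb1 had 0.979, 0.267, 0.477 and 0.638 CPM, against 1.83, 0.883, 0.977 and 1.70 CPM in KO SHAM. These are 4 to 101 counts per library, and the highest WT sham values came from WT SHAM 2 and WT SHAM 3. The averaged log2 fold change was -1.37 (SE 0.43, adjusted p = 0.0755) and shrank to -0.47 without the 3 sham libraries. Pfkfb2, the heart form, averaged 34.9 ± 8.48 CPM in WT PAB and 25.4 ± 5.62 CPM in WT SHAM, and 31.4 ± 4.32 CPM in KO PAB and 24.7 ± 6.96 CPM in KO SHAM (SD, n = 4 each). Its log2 fold change was 0.41 (SE 0.15, adjusted p = 0.127). Pfkfb3, the widely expressed inducible form, reached 72.7 CPM in WT SHAM 3 and 65.9 CPM in KO PAB 3 and was at 13.5 to 50.4 CPM elsewhere. Its averaged log2 fold change was -0.07 with the 16 libraries (SE 0.36, adjusted p = 0.929) and 0.58 without the 3 sham libraries.

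**Figure D2:**
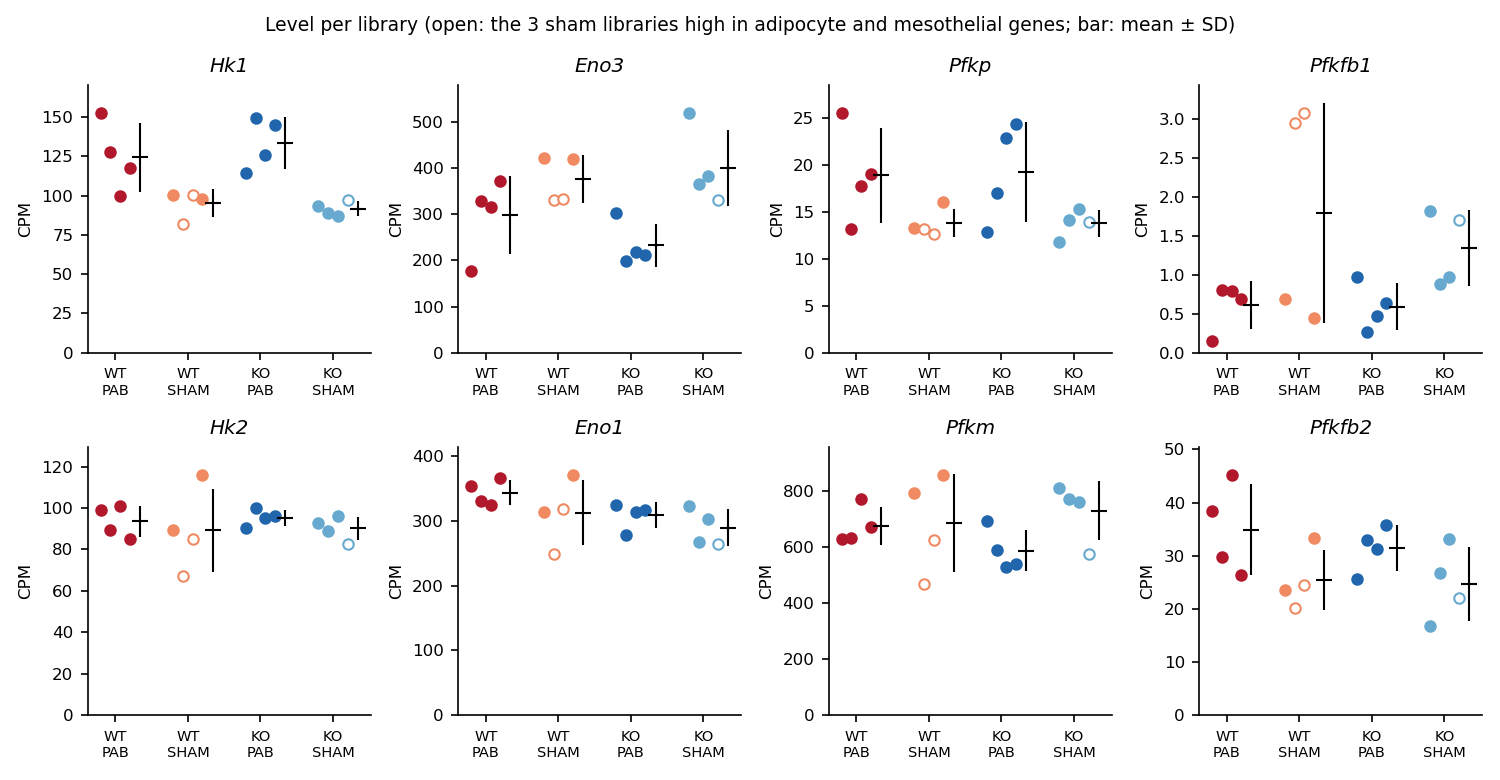
CPM per library (points) with the mean ± SD (bars) in the 4 groups for Hk1, Eno3, Pfkp and Pfkfb1 in the upper row and their partner forms Hk2, Eno1, Pfkm and Pfkfb2 in the lower row. Open points are the 3 sham libraries that stood apart; the 4 KO PAB libraries lie above the KO SHAM libraries for Hk1 and below them for Eno3.

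Between the hexose phosphates and the triose phosphates no gene passed the test. Gpi, glucose-6-phosphate isomerase, had an averaged log2 fold change of 0.16 (SE 0.08, adjusted p = 0.263), and 0.06 without the 3 sham libraries. Aldoa, the muscle aldolase, averaged 1809 ± 30.3 CPM in WT PAB and 1586 ± 324 CPM in WT SHAM, and 1656 ± 201 CPM in KO PAB and 1619.7 ± 212 CPM in KO SHAM (SD, n = 4 each). Its log2 fold change was 0.11 (SE 0.10, adjusted p = 0.555) and turned to -0.03 without the 3 sham libraries. Aldoc, the brain form, was rare, at 22 to 183 counts per library, and its log2 fold change of -0.81 (SE 0.28, adjusted p = 0.103) was -0.35 without the 3 sham libraries. Tpi1, triose phosphate isomerase, stood at 0.06 (SE 0.11, adjusted p = 0.794), and turned to -0.12 without them.

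The middle of the payoff phase showed no called gene. Gapdh, glyceraldehyde-3-phosphate dehydrogenase, averaged 2401 ± 70.6 CPM in WT PAB and 2333 ± 409 CPM in WT SHAM, and 2212 ± 386 CPM in KO PAB and 2342 ± 234 CPM in KO SHAM (SD, n = 4 each). Its averaged log2 fold change was -0.02 (SE 0.10, adjusted p = 0.928), and that of Pgk1, phosphoglycerate kinase, was 0.03 (SE 0.11, adjusted p = 0.9). Pgam1, the non-muscle phosphoglycerate mutase, had 0.21 (SE 0.09, adjusted p = 0.164), and Pgam2, the muscle form, had -0.09 (SE 0.13, adjusted p = 0.751). Pkm, pyruvate kinase, had 0.04 (SE 0.09, adjusted p = 0.818). Without the 3 sham libraries the estimates of Pgk1 and Pkm turned to -0.14 and -0.08. Gapdh then had -0.14, Pgam1 0.11 and Pgam2 -0.24, and none of the 5 passed.

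Enolase was the step at which the muscle form fell while the test called no difference in the ubiquitous form. Eno3 had 177, 329, 315 and 372 CPM in WT PAB, against 422, 329.9, 332 and 419 CPM in WT SHAM. In KO PAB Eno3 had 301, 198, 219 and 212 CPM, against 518, 365, 383 and 331 CPM in KO SHAM. The KO groups did not overlap, while in WT only WT PAB 4 lay within the sham range. Averaged over genotypes, Eno3 was at 0.68 of its sham level, a log2 fold change of -0.56 (SE 0.15, edgeR adjusted p = 0.0427). The estimate was -0.33 in WT (SE 0.21, adjusted p = 0.542) and -0.78 in KO (SE 0.21, adjusted p = 0.0922), and their difference was -0.45 (SE 0.30, adjusted p = 0.999). Eno1, the ubiquitous and fetal form, had 354, 330.3, 324 and 366 CPM in WT PAB, against 314, 249, 318 and 370.0 CPM in WT SHAM. In KO PAB Eno1 had 324, 279, 314 and 317 CPM, against 322, 268, 303 and 264 CPM in KO SHAM. The groups overlapped in both genotypes, and the averaged log2 fold change was 0.11 (SE 0.08, adjusted p = 0.419), or 0.03 without the 3 sham libraries. The call of Eno3 was close to the threshold: it was lost when any 1 of 12 libraries was left out, that is each library other than WT PAB 4, WT SHAM 2, KO PAB 1 and KO SHAM 4, with adjusted p then between 0.0562 and 0.0941 and log2 fold changes of all 16 such fits between -0.63 and -0.46. Without the 3 sham libraries it was -0.67 (adjusted p = 0.0377).

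The promoters of the 2 enzyme pairs at which a member was called are shown because these are the pairs whose proportions are compared further on. Each is the 250 bases before the annotated transcription start, from RefSeq for the assembly GRCr8, written 5′ to 3′ on the gene's strand. The counts were made on Rnor_6.0, so the positions belong to the sequence table only. Capitals mark matches, on either strand, to ACGTG or GCGTG (cores bound by hypoxia-inducible factors) or CATTCC (bound by TEAD factors). For Hk1 and Eno1, which have 2 annotated starts each, the second is printed.
Hk1 (chr20:30842073-30842322, minus strand): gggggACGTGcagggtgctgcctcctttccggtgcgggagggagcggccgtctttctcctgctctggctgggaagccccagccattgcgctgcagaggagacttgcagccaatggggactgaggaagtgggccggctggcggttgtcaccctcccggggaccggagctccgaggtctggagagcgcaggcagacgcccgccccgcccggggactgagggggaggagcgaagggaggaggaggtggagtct
Hk2 (chr4:116841276-116841525, minus strand): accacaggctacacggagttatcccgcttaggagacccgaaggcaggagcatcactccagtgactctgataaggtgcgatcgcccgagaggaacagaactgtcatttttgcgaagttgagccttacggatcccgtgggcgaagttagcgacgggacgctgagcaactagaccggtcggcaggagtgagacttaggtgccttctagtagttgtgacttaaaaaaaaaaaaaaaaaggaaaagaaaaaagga
Eno3 (chr10:55868936-55869185, plus strand): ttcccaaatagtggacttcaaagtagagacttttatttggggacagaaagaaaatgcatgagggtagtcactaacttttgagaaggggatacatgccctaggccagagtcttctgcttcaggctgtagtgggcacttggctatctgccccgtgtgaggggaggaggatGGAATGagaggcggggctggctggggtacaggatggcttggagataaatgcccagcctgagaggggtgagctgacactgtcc
Eno1 (chr5:166003111-166003360, plus strand): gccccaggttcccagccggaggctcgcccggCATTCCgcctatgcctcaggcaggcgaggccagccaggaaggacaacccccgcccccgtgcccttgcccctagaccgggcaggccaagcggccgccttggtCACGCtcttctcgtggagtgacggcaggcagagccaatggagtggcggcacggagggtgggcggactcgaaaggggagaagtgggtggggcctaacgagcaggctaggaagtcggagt

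The Hk1 window held 1 ACGTG and its other start held none of the motifs searched. The Hk2 window held none, the Eno3 window 1 CATTCC, and the Eno1 window 1 GCGTG and 1 CATTCC, while the other Eno1 window held 1 GCGTG. Of the 31 genes with a window in the table, 15 (48.4%) held ACGTG on either strand, against 22.7% of the 9708 tested genes with a window and 16.6% of all 33469 windows. GCGTG was held by 17 (54.8%), against 45.6% and 25.9%. The palindrome CACGTG, which contains ACGTG, was held by 5 (16.1%), against 8.4% and 5.59%. CATTCC was held by 5 (16.1%), against 10.4% and 12.1%, and the MEF2 consensus by 1, Aldoa (3.23%), against 1.67% and 2.96%. The palindromic estrogen response element was in none of the 31, against 0% of tested genes and 0.0239% of all windows. The second background of each motif counts windows and not genes. Of the 35 windows of the members, 42.9% held ACGTG, 51.4% GCGTG, 14.3% CACGTG, 14.3% CATTCC and 2.86% the MEF2 consensus. These are matches of letters, which say nothing of binding.

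None of the 4 genes of lactate handling passed the test; their averaged estimates were positive, but that of Ldha turned without the 3 sham libraries. Ldhb, the heart form of lactate dehydrogenase, had 3547, 2644, 3055 and 2988 CPM in WT PAB, against 2485, 1775, 2169.9 and 2975 CPM in WT SHAM. In KO PAB Ldhb had 3198, 2602, 2536 and 2646 CPM, against 2805, 2760.3, 2548 and 1882 CPM in KO SHAM. Groups overlapped in both genotypes, and the averaged log2 fold change was 0.26 (SE 0.12, adjusted p = 0.209), or 0.10 without the 3 sham libraries. Ldha, the muscle form, had 0.07 (SE 0.11, adjusted p = 0.764), and -0.12 without those libraries. Slc16a1 encodes the lactate carrier MCT1 and averaged 333 ± 65.2 CPM in WT PAB and 260.1 ± 60.5 CPM in WT SHAM, and 323 ± 29.3 CPM in KO PAB and 284 ± 29.6 CPM in KO SHAM (SD, n = 4 each). Its log2 fold change was 0.27 (SE 0.11, adjusted p = 0.175), or 0.18 without the 3 sham libraries. Slc16a3, the carrier MCT4 of strongly glycolytic cells, had 0.35 (SE 0.33, adjusted p = 0.561) and 0.80 without the 3 sham libraries.

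Pdha1, Pdhb and Dlat encode parts of the pyruvate dehydrogenase complex, and Pdk1, Pdk2 and Pdk3 encode kinases that switch it off. The averaged estimates were positive for 6 of 6, from 0.04 to 0.19, and none passed (adjusted p from 0.276 to 0.826). Dlat, the acetyl transfer subunit, had the highest, 0.19 (SE 0.10). Pdha1, the catalytic alpha subunit, averaged 1022 ± 75.8 CPM in WT PAB and 940.4 ± 204 CPM in WT SHAM, and 1079 ± 80.2 CPM in KO PAB and 1071 ± 181 CPM in KO SHAM (SD, n = 4 each). Pdha1l1, an entry named for its likeness to Pdha1, is listed apart and had an averaged log2 fold change of 0.07, the same as Pdha1, and reads of the pair may be split by the counting. Without the 3 sham libraries 4 of the 6 estimates turned negative, namely those of Pdha1 (-0.09), Pdhb (-0.10), Pdk1 (-0.09) and Pdk2 (-0.07), while Dlat had 0.06 and Pdk3 0.63. The glycogen genes Gys1 (glycogen synthase) and Pygm (muscle glycogen phosphorylase) had averaged estimates of -0.03 (SE 0.10) and -0.02 (SE 0.11). With those libraries left out these were -0.15 (SE 0.07, adjusted p = 0.222) and -0.18 (SE 0.06, adjusted p = 0.0993).

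To ask whether banding altered which form of an enzyme was used, the log2 ratio of the counts of a pair of forms was taken within each library. Such a ratio needs no scaling between libraries and gene length cancels when ratios are compared. There were 13 ratios, compared by two-sided exact permutation tests within genotype and adjusted over the 13, and some pairs were included with the results of their genes known. Averaged over genotypes, 5 of the 13 passed. The share among other gene pairs was not worked out, so whether 5 of 13 is many cannot be said. The ratios with Hk1 and Eno3 also rest on the same counts as the calls of these genes. In single genotypes 4 against 4 libraries cannot give less than 0.0286, which 1 ratio alone cannot bring past the adjustment.

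The enolase ratio moved furthest beyond its spread. The log2 ratio of Eno1 to Eno3 was 1.00, 0.01, 0.04 and -0.02 in WT PAB, against -0.43, -0.41, -0.06 and -0.18 in WT SHAM. In KO PAB it was 0.10, 0.49, 0.52 and 0.58, against -0.68, -0.45, -0.33 and -0.33 in KO SHAM. The banded and sham libraries did not overlap in either genotype, although in WT the gap between the lowest banded and the highest sham library was narrow. The averaged difference was 0.70 (exact p = 0.000408, the smallest that 4900 arrangements can give; adjusted p = 0.00531), with 0.52 in WT and 0.87 in KO. It was 0.73 without the 3 sham libraries, where it passed only narrowly (exact p = 0.00762, adjusted p = 0.0495). When each library was left out in turn it was 0.57 to 0.75.

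Banded ventricles also held more Hk1 for each Hk2. The log2 ratio was 0.62, 0.51, -0.02 and 0.47 in WT PAB, against 0.17, 0.28, 0.24 and -0.24 in WT SHAM. In KO PAB it was 0.34, 0.58, 0.40 and 0.59, against 0.01, -0.00, -0.14 and 0.24 in KO SHAM. Groups did not overlap in KO and overlapped in WT, where WT PAB 3 lay low. The averaged difference was 0.37 (exact p = 0.00531, adjusted p = 0.0345). It was 0.48 without the 3 sham libraries (adjusted p = 0.0495), and missed the threshold without any 1 of WT PAB 1, WT PAB 4, KO PAB 2, KO PAB 4 and KO SHAM 3 (adjusted p from 0.0557 to 0.0814).

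**Figure D3:**
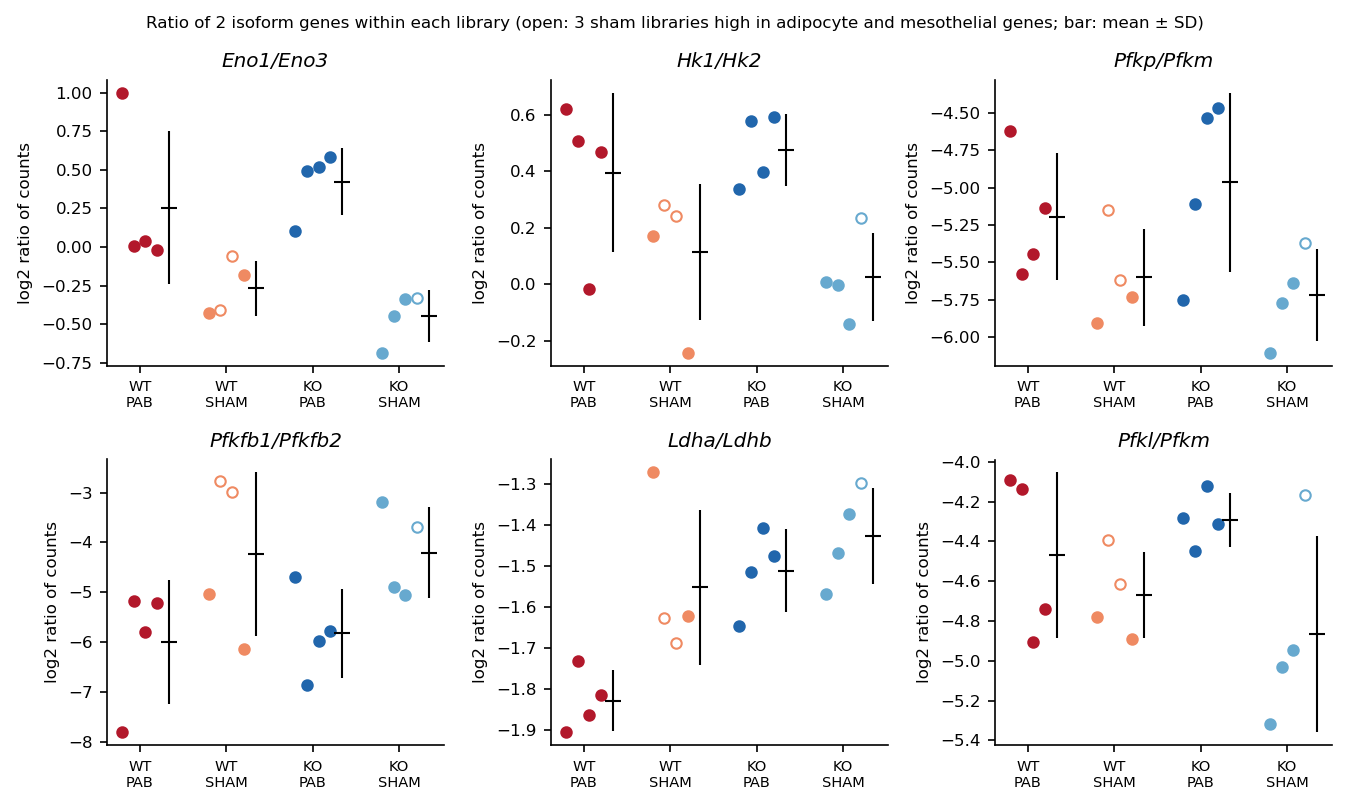
Log2 ratio of the counts of 2 forms of an enzyme in each library (points; open points are the 3 sham libraries that stood apart) with the mean ± SD (bars) in the 4 groups, for 6 of the 13 pairs. The PAB libraries lie above the SHAM libraries without overlap in both genotypes for Eno1/Eno3, and the other 5 panels show overlap in at least 1 genotype.

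The other 3 called ratios each lost their call when certain single libraries were left out. Pfkp to Pfkm averaged -5.19 ± 0.43 in WT PAB and -5.60 ± 0.32 in WT SHAM, and -4.96 ± 0.60 in KO PAB and -5.72 ± 0.31 in KO SHAM (SD, n = 4 each). The averaged difference was 0.58 (exact p = 0.0184, adjusted p = 0.0478), and 0.75 (adjusted p = 0.0495) without the 3 sham libraries. Leaving out any 1 of 13 libraries, all but WT PAB 2, WT SHAM 2 and KO PAB 1, brought it to an adjusted p of 0.0557 to 0.0998. Ldha to Ldhb was -1.91, -1.73, -1.86 and -1.81 in WT PAB, against -1.27, -1.63, -1.69 and -1.62 in WT SHAM. In KO PAB it was -1.65, -1.52, -1.41 and -1.48, against -1.57, -1.47, -1.37 and -1.30 in KO SHAM. Every WT PAB library lay below every WT SHAM library, while the KO groups overlapped; whether the genotypes differ in this was not tested. The averaged difference of Ldha to Ldhb was -0.18 (exact p = 0.011, adjusted p = 0.0478), and -0.21 (adjusted p = 0.0644) without the 3 sham libraries. It was also lost without any 1 of WT PAB 1, WT PAB 3, WT PAB 4, KO PAB 1, KO PAB 2, KO PAB 4, KO SHAM 3 and KO SHAM 4 (adjusted p from 0.0557 to 0.0814). Pfkfb1 to Pfkfb2 had an averaged difference of -1.69 (exact p = 0.0155, adjusted p = 0.0478), but -0.92 (adjusted p = 0.279) without the 3 sham libraries. Leaving out any 1 of 11 libraries, all but WT PAB 2, WT SHAM 1, WT SHAM 4, KO PAB 1 and KO SHAM 2, brought it to an adjusted p of 0.0557 to 0.0822. The ratios Aldoc to Aldoa, Pgam1 to Pgam2 and Pfkl to Pfkm had adjusted p of 0.0601, 0.0743 and 0.0743, and the remaining 5 had 0.562 or more. Without the 3 sham libraries Pfkl to Pfkm passed, with 0.59 (adjusted p = 0.0495) in place of 0.39, and Aldoc to Aldoa had -0.35 in place of -0.88. The remaining 5 also moved, and none of them passed. Pfkfb3 to Pfkfb2 turned from -0.30 to 0.26 and Pdk1 to Pdk2 from 0.08 to -0.01. Pdk3 to Pdk2 had 0.62 in place of 0.12, and Slc16a3 to Slc16a1 0.57 in place of 0.13. Slc2a1 to Slc2a4 had 0.118 in place of 0.004.

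Loss of the receptor left the 33 genes without a called difference. In PAB, in SHAM and averaged over both surgeries, edgeR called 0 of the 33 between KO and WT and 1 of all genes tested (0.00743%), and DESeq2 also called 0 of the 33. At an unadjusted p below 0.05 no member passed in PAB or in SHAM, and 1, Slc2a1, passed on average, against 4.52%, 2.03% and 4.93% of all genes. These p-values rest on a spread estimated over all 16 libraries. Fitted without the 3 sham libraries, Pkm, Slc16a3, Pfkfb3, Ldha and Pygm had unadjusted edgeR p of 0.0193 to 0.0415 in PAB (adjusted 0.685 to 0.69). On average Eno1, Pkm and Pygm then had 0.0258 to 0.0499 and Slc2a1 0.0553. The share of all genes in that fit was not worked out. Slc2a1 had 18.3, 14.3, 14.2 and 14.0 CPM in KO PAB, against 11.8, 18.9, 9.29 and 9.06 CPM in WT PAB. In KO SHAM it had 14.5, 18.7, 18.5 and 14.0 CPM, against 11.1, 9.37, 15.2 and 14.6 CPM in WT SHAM. KO and WT overlapped under both surgeries, and the averaged log2 fold change of KO over WT was 0.35 (SE 0.15, adjusted p = 0.989). The KO and WT sham groups overlapped for every member, against 1.26% of all genes without overlap. Eno1 was the 1 member whose banded groups did not overlap, with 279 to 324 CPM in KO PAB and 324 to 366 CPM in WT PAB (the values at 324 differ before rounding), against a background of 3.31% of genes. Its log2 fold change there was -0.16 (SE 0.11, adjusted p = 0.999). No isoform ratio passed between genotypes. Averaged over surgeries, the smallest p was that of Ldha to Ldhb, higher in KO by 0.22 (exact p = 0.00857, adjusted p = 0.111). In PAB, Ldha to Ldhb and Pfkfb3 to Pfkfb2 were higher in every KO library than in every WT library. The mean differences were 0.32 and 0.89 (exact p = 0.0286, adjusted p = 0.186 for each). Because this is the lowest exact p possible there, the missing calls do not show that isoform use was alike in the banded groups. The other ratios overlapped in PAB, and all ratios overlapped in SHAM.

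**Figure D4:**
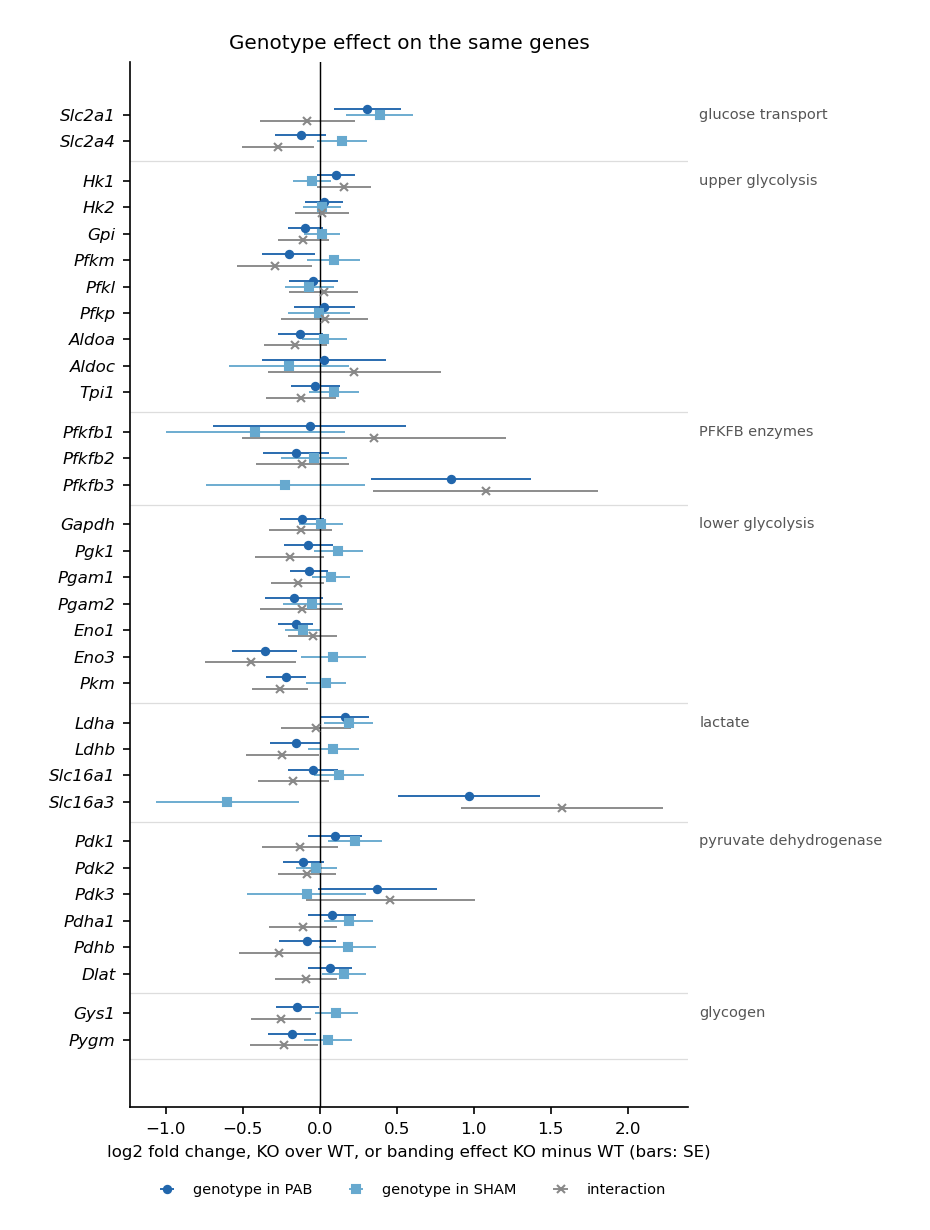
Log2 fold change of KO over WT in PAB (circles) and in SHAM (squares), and the interaction, that is KO minus WT in the effect of banding (crosses), for the 33 genes, with bars of 1 SE. None passed the adjusted test; Slc16a3 has the largest interaction estimate, 1.57, and most other symbols lie close to zero.

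The interaction asks whether banding acted differently in KO and WT, and it called 0 of the 33 and 0 of all genes tested by edgeR. DESeq2 called 0 of the 33 too. At an unadjusted p below 0.05 there was 1 member, Slc16a3, against 1.76% of all genes. Slc16a3 had 2.37, 1.33, 3.74 and 1.42 CPM in KO PAB, against 0.961, 0.614, 0.382 and 2.00 CPM in KO SHAM. In WT PAB it had 1.58, 0.969, 0.639 and 1.35 CPM, against 1.57, 1.70, 1.90 and 0.946 CPM in WT SHAM. Groups overlapped in both genotypes, with 9 to 102 counts per library. The estimates were 1.13 in KO (SE 0.46, adjusted p = 0.25) and -0.44 in WT (SE 0.46, adjusted p = 0.725), a difference of 1.57 (SE 0.65, unadjusted p = 0.0296, adjusted p = 0.999). All 7 genes of the lower glycolysis group had a negative interaction estimate, from -0.45 (Eno3) to -0.05 (Eno1), and none passed; without the 3 sham libraries 3 of the 7, Gapdh, Pgam2 and Eno1, were positive. The median interaction estimate was -0.11 over the 33 and 0.01 over all genes tested.

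The 3 sham libraries that stood apart held less of most of these mRNAs. Of the 33 genes, 27 averaged lower in them than in the other 5 sham libraries, with a median log2 difference of -0.31, and 17 lay below all 5. This moved together with the lower sum of cardiomyocyte markers and the higher sums of mesothelial, smooth muscle, fibroblast and macrophage markers, and their part in it was not tested. WT SHAM 2 had the lowest of the 4 WT SHAM values for 27 genes, and KO SHAM 4 had the lowest of the 4 KO SHAM values for 24. KO PAB 1 had the highest of the 4 KO PAB values for 22. Leaving the 3 out gave 951 called genes of 13583 (7%) for averaged banding, with Hk1 higher and Eno3 and Pfkm lower among the members. In KO alone it gave 344 called genes (2.53%), with Hk1 among them.

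**Figure D5:**
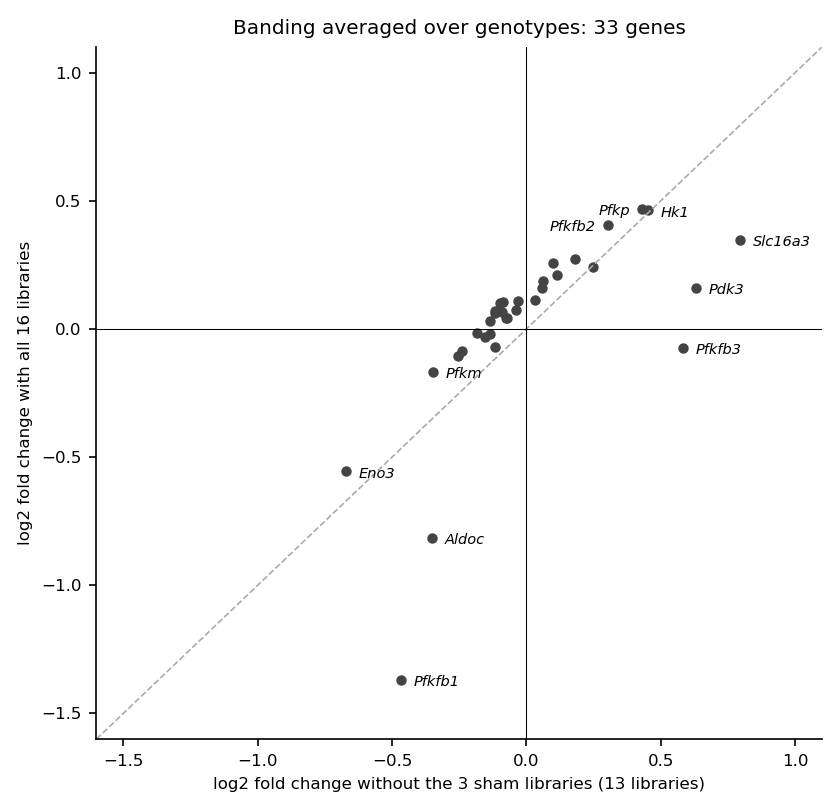
Averaged log2 fold change of PAB over SHAM for the 33 genes with all 16 libraries (vertical axis) against that without the 3 sham libraries (horizontal axis); the dashed line marks equality. Hk1 and Pfkp stay close to the line, most genes lie above it, and Pfkfb1, Aldoc, Pfkfb3, Pdk3 and Slc16a3 lie farthest from it.

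Other genes of glucose and glycogen metabolism outside the 33 gave a similar count. Of 67 listed, 65 were in the tables and 57 were tested; averaged banding raised 2 and lowered 1, against 3.24% and 1.85% of all genes, and the other 6 comparisons called none. Phkg1, the catalytic subunit of muscle phosphorylase kinase, had 3.65, 6.88, 5.62 and 5.44 CPM in WT PAB, against 9.91, 8.05, 10.4 and 6.41 CPM in WT SHAM. In KO PAB Phkg1 had 6.97, 5.22, 5.79 and 5.21 CPM, against 10.4, 8.40, 8.71 and 9.22 CPM in KO SHAM. The KO groups did not overlap and the WT groups did. Phkg1 fell by 0.67 on the log2 scale (SE 0.13, adjusted p = 0.0103) and passed in 25 of 25 alternatives. Fbp1, the liver fructose bisphosphatase of gluconeogenesis, rose by 1.67 (SE 0.42, adjusted p = 0.0329) at no more than 0.501 CPM, and passed in 10 of 24 alternatives. Its adjusted p was 0.0511 to 0.0863 without any 1 of WT PAB 1, WT PAB 2, WT PAB 4, WT SHAM 1, WT SHAM 2, KO PAB 2, KO PAB 4, KO SHAM 2, KO SHAM 3 and KO SHAM 4. Pdk4, the kinase of fasting and fatty acid use, ranged from 56.4 to 634 CPM within the WT SHAM group alone, and its averaged log2 fold change was -0.04 (SE 0.39, adjusted p = 0.959).

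Among 30 listed regulators of glycolysis, 28 were tested, and averaged banding raised 1 and lowered 2, against 3.24% and 1.85% of all genes, with none called in the other 6 comparisons. Egln3, a hypoxia-inducible prolyl hydroxylase that marks hypoxia-inducible factors for degradation, averaged 277 ± 83.8 CPM in WT PAB and 186 ± 34.8 CPM in WT SHAM, and 280.3 ± 19.7 CPM in KO PAB and 202 ± 30.3 CPM in KO SHAM (SD, n = 4 each). It rose by 0.53 (SE 0.13, adjusted p = 0.0318), but had 0.41 (adjusted p = 0.0923) without the 3 sham libraries, and 0.0525 to 0.0701 as adjusted p without any 1 of WT PAB 1, WT SHAM 3, KO PAB 2, KO PAB 4 and KO SHAM 3. Arnt, the partner subunit of hypoxia-inducible factors, fell by 0.21 (SE 0.05, adjusted p = 0.0271), with adjusted p of 0.0505 to 0.0644 without any 1 of WT PAB 1, WT PAB 2, WT SHAM 3, KO PAB 1, KO PAB 2, KO PAB 4 and KO SHAM 2, and 0.075 without the 3 sham libraries. Mef2a, a muscle transcription factor, fell by 0.25 (SE 0.06, adjusted p = 0.0342), and missed the threshold in 13 of 25 alternatives, 11 of them single libraries left out (all but WT PAB 4, WT SHAM 2, WT SHAM 4, KO SHAM 1 and KO SHAM 4), with adjusted p of 0.0506 to 0.0793 in those.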

How the data were processed

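Polyadenylated RNA of 16 right ventricle libraries (4 in each of 4 groups) was sequenced. Values are expected counts per gene symbol, deposited as whole numbers; STAR 2.5.3a, RSEM 1.3.0 and Rnor_6.0 are named, per the submitters' processing notes, and the annotation, strand setting and rounding are not given in the sources used here. Of 32754 entries, 13748 were 0 throughout and 274 symbols occur more than once; none was summed. In R 4.3.3, edgeR 4.0.16 scaled libraries by TMM, kept 13458 genes (filterByExpr, minimum count 10, at least 99.93% of each library's counts) and fitted 4 group means to 16 libraries by robust quasi-likelihood. P-values were adjusted by Benjamini-Hochberg over the genes tested, threshold 0.05. The SE is the size of the log2 fold change over the square root of F.

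Isoform ratios are log2((count + 0.5)/(count + 0.5)), tested by two-sided exact permutation and adjusted over 13. Precision rests on 4 libraries a group, which held 22168110 to 34718633 counts. Alternatives were limma-voom (limma 3.58.1), DESeq2 1.42.0, RLE factors, a stricter low-count filter (1 CPM in 4 libraries) or none, a block for replicate number, only the groups compared, leaving out 3 sham libraries, adipocyte and mesothelial scores as a covariate, totals without mitochondrial genes, and leaving out each library; for ratios, other offsets, medians, the block and left-out libraries. Members, gene lists, ratios and the 3 sham libraries were chosen with earlier results of these data known. Values per library are given for called members, their partner forms and a few members with the smallest p; other lists give counts and called genes. The procedure was checked on simulated data with fold changes larger than those of most members, and the outcome is not given here. No pairing by replicate number was seen: 3 of 16 libraries correlated best with one of their own number. This check cannot exclude a pairing, because WT SHAM 2 and WT SHAM 3 correlated best with KO SHAM 4, another library that stood apart. The values of 1 called gene outside the 33 are not reported here.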

Additional observations from a re-analysis of the deposited data

Results flagged for a closer look

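A single library lay far from the other 3 of its group for 10 of 132 gene and group combinations and for 2 of 52 ratio and group combinations; chance flags about 1 in 20. KO PAB 1 was the outlying library for 4 genes, each time high. Slc2a1 was at 18.3 CPM in it and at 14.0 to 14.3 CPM in the other 3. Gapdh was at 2789.7 CPM, against 1979.9 to 2062 CPM. Pkm was at 764 CPM, against 620.0 to 639 CPM, and Ldhb at 3198 CPM, against 2536 to 2646 CPM. In the banded KO group Pgam1 was also high in KO PAB 3, at 197 CPM against 183 to 184 CPM, and Slc16a1 in KO PAB 2, at 366 CPM against 302 to 312 CPM.

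Sham libraries accounted for 4 of the gene values. Hk1 was at 81.7 CPM in WT SHAM 2, against 97.8 to 101 CPM, and Pfkfb3 at 72.7 CPM in WT SHAM 3, against 14.5 to 21.8 CPM. Pdk3 was at 4.06 CPM in KO SHAM 4, against 1.89 to 2.21 CPM. These 3 values are in the libraries high in adipocyte and mesothelial genes. Pfkp was at 16.0 CPM in WT SHAM 4, against 12.7 to 13.2 CPM. The log2 ratio of Eno1 to Eno3 was 1.00 in WT PAB 1, against -0.02 to 0.04 in the other WT PAB libraries, and that of Ldha to Ldhb was -1.27 in WT SHAM 1, against -1.69 to -1.62.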

How the results depend on the processing

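Counts of called members in WT, for genotype and for the interaction stayed at 0 under every alternative that was fitted. For banding in KO the count was 0, but 2 with DESeq2, 1 with only the groups compared, 1 without the 3 sham libraries, 4 with the adipocyte and mesothelial covariate (Hk1 and Slc16a3 higher, Eno3 and Pfkm lower), and 0 to 2 when each library was left out. For banding averaged over genotypes the count was 2, but 4 with DESeq2 (adding Pfkp and Pfkfb1), 3 without the 3 sham libraries and 3 with the covariate (each adding Pfkm), 1 with the replicate block (Hk1, whose paired estimate was 0.46), and 1 to 3 when each library was left out (3 without KO PAB 1, adding Pfkp); Eno3 had an adjusted p of 0.08 in the paired fit. Of the ratios, 5 passed for averaged banding, 1 with medians (Eno1 to Eno3), 0 with the replicate block (Eno1 to Eno3 had an adjusted p of 0.0508 in this paired test) and 1 to 5 when each library was left out. The paired test of a ratio has 256 arrangements and a smallest p of 0.00781 (16 and 0.125 in a single genotype), so it cannot pass the adjustment for 1 ratio alone. For genotype averaged over surgeries 0 ratios passed, and 0 to 2 with each library left out; the 2, without WT SHAM 1, were Ldha to Ldhb and Pdk1 to Pdk2. Over all genes, averaged banding called 685, but 1337 with DESeq2, 1335 with the covariate, and 361 without WT PAB 1, 437 without WT SHAM 3, 356 without KO PAB 2, 363 without KO PAB 4 and 456 without KO SHAM 2. Banding in KO called 85, but 509 with DESeq2, 799 with the covariate, 344 without the 3 sham libraries, 155 with only the groups compared, 0 with the block, and 0 without any 1 of KO PAB 2, KO PAB 4, KO SHAM 1 and KO SHAM 2. Left-out libraries gave 0 to 275 in all, the highest without WT PAB 1. Banding in WT called 1, but 108 with DESeq2 and 0 with limma-voom, with only the groups compared, without the 3 sham libraries, with the covariate and without any 1 of WT SHAM 1, WT SHAM 2 and WT SHAM 4. Genotype called 1 in PAB and 1 on average, but 5 and 12 with DESeq2, and on average 2 with limma-voom and 4 with the covariate. No called gene or ratio changed direction. Depth limits Pfkfb1, Slc16a3, Pdk3 and Aldoc most, with 4 to 183 counts a library.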

Other observations

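Nppa, which encodes the natriuretic peptide ANP and is switched on in overloaded ventricles, had 462, 42.3, 38.0 and 85.0 CPM in WT PAB, against 2.17, 10.1, 14.2 and 14.6 CPM in WT SHAM. In KO PAB it had 519.6, 326, 1017 and 1009.8 CPM, against 1.46, 6.75, 6.97 and 7.41 CPM in KO SHAM. The banded WT library with the highest Nppa, WT PAB 1, also had the highest Hk1 (152 CPM), the highest Pfkp (25.5 CPM), the lowest Eno3 (177 CPM) and the lowest Myh6 (13010.4 CPM, against 17665 to 21580.2 CPM in the other 3) of its group. In KO PAB the pair of libraries with the most Nppa, KO PAB 3 and KO PAB 4, had the least Myh6 (9521 and 10451 CPM) and the most Pfkp (22.8 and 24.4 CPM), but their Eno3 (219 and 212 CPM) lay above that of KO PAB 2 (198 CPM). Hk1 was highest in KO PAB 2 (149 CPM), the banded KO library with the least Nppa, against 125 CPM in KO PAB 3 and 145 CPM in KO PAB 4. These libraries were singled out after their values were seen, and no test was made of the relation.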
